A study of Mus musculus with 10 samples.

Results

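The heat shock proteins and J-domain chaperones are the genes of the deposited table whose symbols begin with Hspa, Hspb, Hspd, Hspe or Hsph, or with Dnaja, Dnajb or Dnajc and a number. The rule found 71 genes of 24537. They are 14 Hspa and Hsph genes, 8 numbered Hspb genes, the HSP-binding genes Hspbp1 and Hspbap1, the chaperonin pair Hspd1 and Hspe1, 4 Dnaja genes, 13 Dnajb genes and 28 Dnajc genes. No measured value was used to choose them. Heart RNA of 10 mice aged 6 weeks was sequenced. The 5 iSOD2 mice (Rosa26-rtTA2+/-;TRE-SOD2-shRNA+/-) carried a doxycycline-dependent transactivator at Rosa26 and, at the Col1a1 locus, a hairpin RNA against Sod2, which encodes the superoxide dismutase of the matrix of mitochondria. The 5 control mice (Rosa26-rtTA2+/-;TRE-SOD2-shRNA-/-) had the transactivator without the hairpin. The study's methods state that the dams, wild-type C57BL/6J, received doxycycline chow during pregnancy only, so both groups share prenatal exposure to the drug and the transactivator. The Rosa26 promoter is not restricted to heart muscle. Each genotype had 2 mice of litter A and 3 of litter B, with 3 males and 2 females among the controls and 2 males and 3 females among the iSOD2 mice.

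HSP70 proteins hold exposed stretches of other proteins in cycles of ATP binding and hydrolysis. J-domain proteins bring them clients and start the hydrolysis, and HSP110 proteins and other exchange factors restart the cycle. Small heat shock proteins keep unfolding proteins soluble without ATP and are abundant in striated muscle, and the chaperonin of the mitochondrial matrix folds imported proteins in a closed chamber. The transcription factor HSF1 raises many of these genes under heat and proteotoxic stress, and the unfolded protein response raises those of the endoplasmic reticulum.

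Library totals over genes lay between 16448090.5 and 24263085.5 counts. Sod2 had 10573 ± 588 normalized counts in control and 10781 ± 449 in iSOD2 hearts (SD, n = 5 each), with an adjusted p of 0.806 by DESeq2. Summed markers of ventricular muscle were at 1676442 to 1921717 normalized counts in control and 1566531 to 1905744 in iSOD2 hearts. None of their 8 genes was at 0 in any mouse, and 1 passed the adjusted threshold between genotypes. Markers of hepatocytes were present too. Their sum ran from 1200.1 to 16734 in control and from 8798 to 30537 in iSOD2 mice, with 17 of 17 genes higher in iSOD2 on average, 1 of them past the adjusted threshold. The 4 smooth muscle markers summed to 5345 to 10854 in control and 5845 to 10971 in iSOD2 mice, with 3 higher on average and 2 past the threshold. The 5 atrial markers summed to 517 to 2123 in control and 635 to 7656 in iSOD2 mice, with 4 of 5 higher, a median log2 fold change of 3.10 and 0 past the threshold, and 2 of them were at 0 in at least 1 mouse. Macrophage and erythroid markers leaned the other way, with 1 of 6 and 0 of 5 higher on average. Their median log2 fold changes were -0.12 and -0.36, with 0 past the threshold. Endothelial (4 of 6 higher), fibroblast (4 of 5), skeletal muscle (5 of 8) and adipocyte markers (2 of 5) also had 0 past it. In these bulk samples, fewer cells of a type and less RNA per cell cannot be told apart. The labels give 10 separate mice, and p-values measure the spread between them.

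The promoters of the members differ in the 2 stress elements searched for. RefSeq promoter sequences (GRCm38.p6, 250 bases before to 50 after each transcription start) were found for 59 of the 71 members. The heat shock element GAANNTTCNNGAA, searched on both strands, occurred in 4 of them (Hspe1, Hspd1, Hsph1 and Dnajb6), which is 6.78%, and in 0.662% of 27025 genes with a promoter. The endoplasmic reticulum stress element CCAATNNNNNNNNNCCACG occurred in 2 members (Hspa5 and Dnajc3), 3.39%, against 0.137% of all genes. No member held both motifs. Of the 11 heat-inducible members with a promoter, 3 held the heat shock element, and Hspa1a, Hspa1b, Hspb1 and Dnajb1 had no match. The search allowed no mismatch and covered this window only, so a gene without a match may still hold a variant or more distant element. A match describes the letters in the window and not a bound site.

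The 150 bases before 5 starts are shown because their genes carry the results that follow. Capitals mark the elements. Hspe1 and Hspd1 are read away from each other from 1 shared stretch, and the run of 18 bases in capitals before Hspe1 holds 2 overlapping heat shock elements that also lie in the promoter of Hspd1. On the strand of Hspe1 the run lies 72 to 89 bases before its start (chr1:55088059-55088076), and on the strand of Hspd1 it lies 127 to 144 bases before that gene's start.
Hspe1, chr1:55087998-55088147, plus strand: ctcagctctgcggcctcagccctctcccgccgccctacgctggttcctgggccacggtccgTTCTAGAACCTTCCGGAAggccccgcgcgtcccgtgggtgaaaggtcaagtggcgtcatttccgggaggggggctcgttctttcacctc
Hspd1, the run as read on its own strand: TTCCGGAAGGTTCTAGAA
Hspa5, chr2:34771940-34772089, plus strand: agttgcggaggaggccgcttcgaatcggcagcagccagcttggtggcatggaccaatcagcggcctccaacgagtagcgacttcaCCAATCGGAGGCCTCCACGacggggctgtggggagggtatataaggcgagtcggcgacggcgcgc
Dnajc3, chr14:118937782-118937931, plus strand: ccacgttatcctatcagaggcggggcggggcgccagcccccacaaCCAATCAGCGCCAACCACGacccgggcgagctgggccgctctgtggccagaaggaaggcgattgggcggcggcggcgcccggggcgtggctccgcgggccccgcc
Dnajc19, chr3:34081355-34081504, minus strand: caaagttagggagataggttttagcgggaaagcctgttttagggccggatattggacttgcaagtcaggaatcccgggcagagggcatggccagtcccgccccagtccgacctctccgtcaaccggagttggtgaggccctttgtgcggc
Dnajc21, chr15:10470517-10470666, minus strand: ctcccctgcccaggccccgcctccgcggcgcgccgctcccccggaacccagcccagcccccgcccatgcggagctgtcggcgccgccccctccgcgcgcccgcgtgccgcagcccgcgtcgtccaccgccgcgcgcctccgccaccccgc
The 150 bases before Dnajc19 and Dnajc21 hold neither element. Hspb2 is described by its values only.

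Levels were compared between genes as normalized counts per kilobase of exon, using the length of the single transcript that was counted for each gene. Of the 71 members, 68 had at least 10 counts over the 10 libraries. The other 3, Dnajb8, Dnajc5b and Dnajc5g, were at or near 0. By this measure of level, 12 members were at 1000 or more, 40 between 100 and 1000, 11 between 10 and 100, and 5 under 10. Together the members took 0.635% ± 0.0232 of the counts over genes in control and 0.664% ± 0.0250 in iSOD2 mice (SD, n = 5 each).

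Hspa8, the constitutive cytosolic HSP70, had the highest mean level of the members at 12629 normalized counts per kilobase and alone took 19.6% of their counts. The muscle small heat shock proteins Hspb7 and Hspb6 followed, with mean levels of 7249 and 5762 per kilobase. Hspa9, the HSP70 of the mitochondrial matrix, was at 4291 and Hspb8, which acts with Bag3, at 4268. The values of these 2 genes overlapped over mice, whereas each of the 3 genes above them was higher than the next in all 10 mice without overlap. Hspa5, the HSP70 of the endoplasmic reticulum, was at 3254 per kilobase, apart from its neighbours on both sides. From Hspb1 at 2394 downwards, neighbours overlapped, through Hspd1 at 2015, Dnajc15 at 1584, Hspe1 at 1499, Dnaja2 at 1157 and Hspb2 at 1096. Small heat shock proteins thus held 5 of these 12 places. The inducible HSP70 genes Hspa1a and Hspa1b were far lower, at 17.2 and 31.8 per kilobase. Their sequences are nearly identical, so their separate counts are uncertain.

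**Figure D1:**
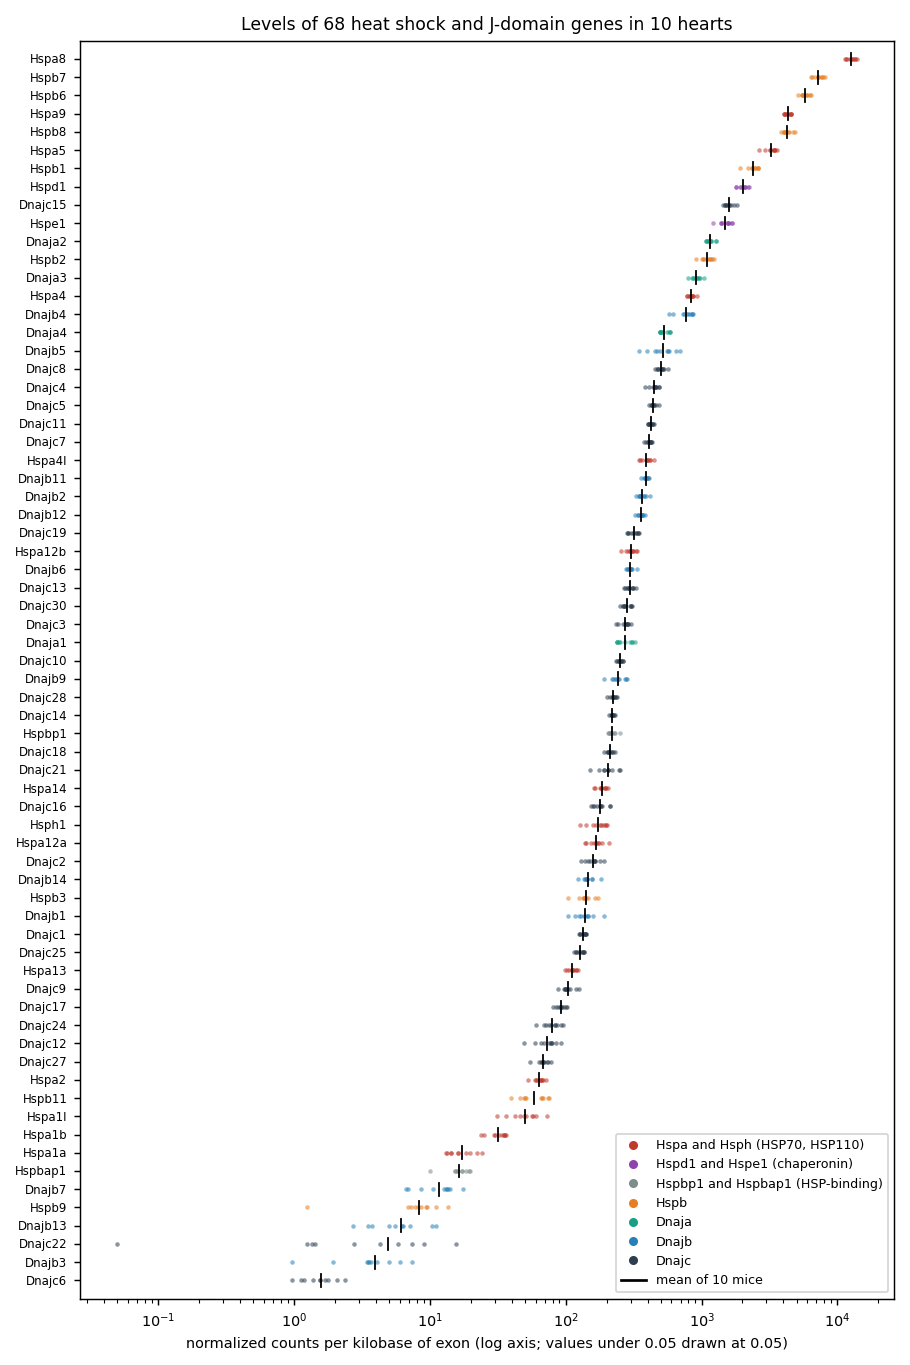
Normalized counts per kilobase of exon (log axis) of the 68 members past the count filter, 1 row per gene, with 1 point per mouse (n = 10), a black line at the mean and colours for the gene families. Hspa8 is highest at 12629, the muscle genes Hspb7 and Hspb6 follow, and 5 members lie under 10.

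The genotypes were compared to ask whether a passing loss of Sod2 before birth was followed by another level of chaperone transcripts at 6 weeks. Few did, and the largest change that passed was an increase of 23.6%. With adjusted p at most 0.05 and an absolute log2 fold change above 0.25 (DESeq2), 1 of the 53 members that received an adjusted p was called higher in iSOD2, Dnajc21, and 0 were called lower. Of all 9479 genes with an adjusted p, 120 (1.27%) were called higher and 161 were called lower. Without the fold threshold 4 members passed, Hspe1, Hspb2, Dnajc19 and Dnajc21, all 4 higher, while 3.04% of all genes passed as higher and 3.05% as lower. At an unadjusted p under 0.05, 10 members were higher and 2 lower of 68, and over all genes the shares were 7.29% and 5.93%. edgeR gave 0 members at adjusted p at most 0.05, and 0 of all 17728 genes, whose lowest adjusted p was 0.0664. At an unadjusted p under 0.05 edgeR gave 12 members, and 15.3% of all genes reached that. Over the 68 members 42 fold changes were above 0 and 26 below, with a median log2 fold change of 0.02 against -0.00 over all genes tested. The 2 groups of mice did not overlap for 4 members, Hspe1, Hspb2, Dnajc19 and Dnajc8, all with iSOD2 above. That held for 2.09% of all genes past the count filter, with 1.66% non-overlapping in the other direction, where there were 0 members.

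The 4 members that passed did not all do so under other settings. Their adjusted p ran from 0.0881 to 0.136 by edgeR, by which 0 of all 17728 genes passed. It ran from 0.128 to 0.639 by DESeq2 once the trend of each library with exon length was removed. In that fit 182 of the 10166 genes with an adjusted p passed. With the hepatocyte marker level as a covariate their log2 fold changes were 0.23 for Hspe1, 0.22 for Hspb2, 0.23 for Dnajc19 and 0.34 for Dnajc21, with adjusted p from 0.0817 to 0.107 by DESeq2. The call of Dnajc21 was lost when any of 7 mice (controls 1, 2, 3 and 6, iSOD2 5, 7 and 8) was left out, with log2 fold changes from 0.24 to 0.35 over all 10 such fits. Without control 4, Hspe1 was called too, at 0.26.

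**Figure D2:**
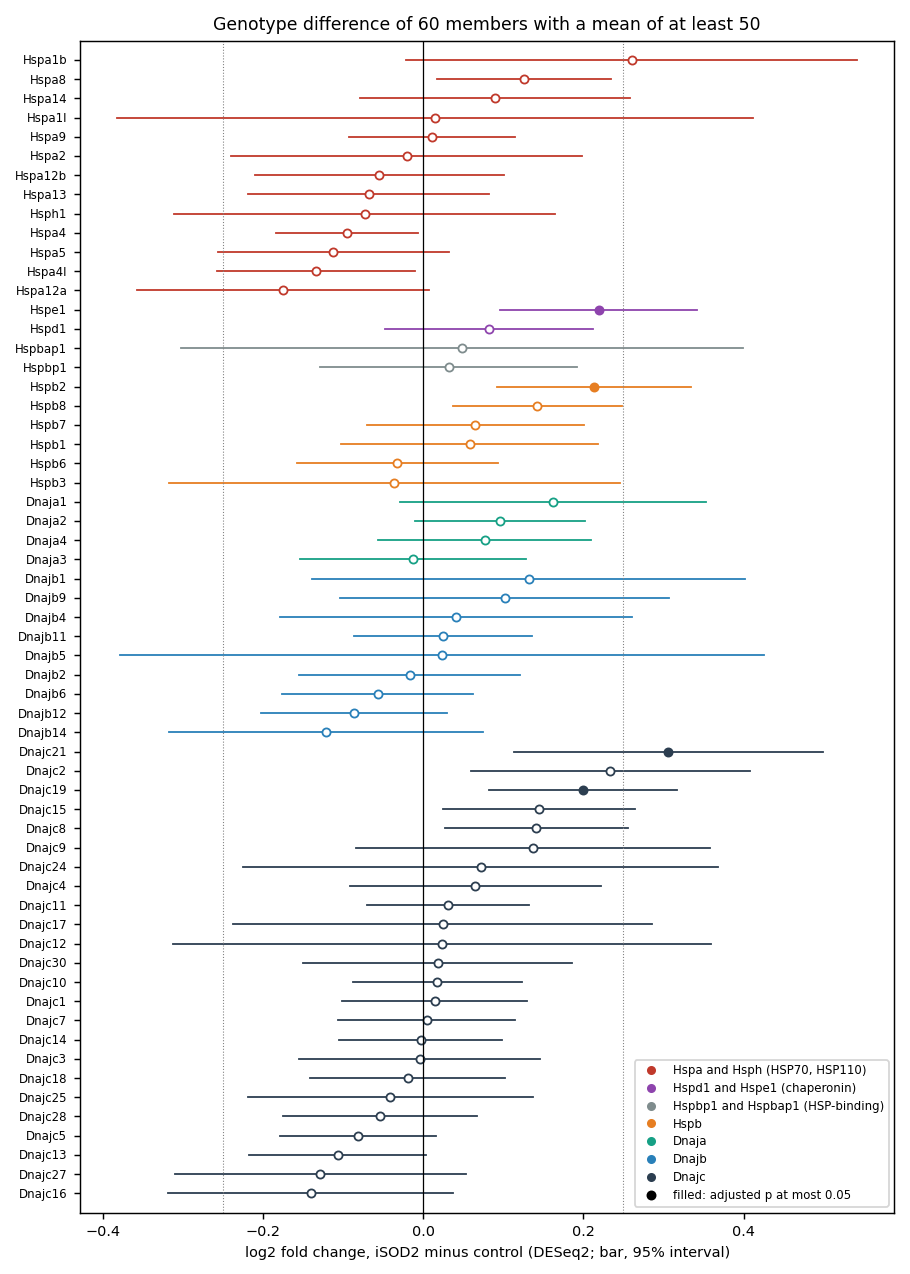
Log2 fold change of iSOD2 against control by DESeq2 with its 95% interval, for the 60 members whose mean normalized count was 50 or more, grouped and coloured by family; dotted lines mark 0.25 in each direction. The filled points are Hspe1, Hspb2, Dnajc19 and Dnajc21, and most intervals include 0.

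The mitochondrial chaperones gave 2 of the 4 members that passed. Hspe1 (NM_008303, mm10 chr1:55088148-55091317) encodes HSP10, the lid of the chaperonin chamber. Its normalized counts were 1053, 1071, 930.4, 1164 and 1058 in the control mice and 1284, 1202, 1206, 1188 and 1267 in the iSOD2 mice. Every iSOD2 mouse was above every control mouse, with control 3 lowest. The log2 fold change was 0.22 (SE 0.063), an increase of 16.4%, with an adjusted p of 0.0152 by DESeq2. With the trend with exon length removed, it was 0.08 (adjusted p 0.585). Its partner Hspd1, which encodes HSP60, the wall of the chamber, had 4850.2, 4689, 4148, 4852 and 4152 in control and 5183, 5060.1, 4756, 4469 and 4556 in iSOD2 mice. These groups overlapped, and the log2 fold change was 0.08 (SE 0.066, adjusted p 0.518 by DESeq2). The pair shares 1 promoter stretch, printed above, and an alternative Hspd1 transcript, not the counted one, overlaps 14.5% of the exon bases of Hspe1 on the other strand.

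Dnajc19 (NM_001286972, mm10 chr3:34077351-34081354) is the J-domain protein of the import motor of the mitochondrial inner membrane, and loss of its human counterpart causes a dilated cardiomyopathy. It had 566, 532, 533, 581 and 523 normalized counts in control and 618, 638, 633, 639.8 and 616 in iSOD2 mice. The groups did not overlap, and the spread within each was small, with an SD of 11.1 among the iSOD2 mice. The log2 fold change was 0.20 (SE 0.060, adjusted p 0.0221 by DESeq2). Dnajc15, its relative in the same membrane, was at 0.14 on the log2 scale (SE 0.061, adjusted p 0.143), and at -0.01 with the length trend removed (adjusted p 0.989). The mitochondrial HSP70 Hspa9 was at 12921 ± 665 in control and 13019.7 ± 726 in iSOD2 hearts (SD, n = 5 each), which is 0.01 on the log2 scale (adjusted p 0.940). Of the 10 mitochondrial members, 8 had fold changes above 0 and 2 passed, with a median of 0.05, and with the length trend removed 5 were above 0 and 0 passed, with a median of 0.01. The other 5 of the list, Dnaja3, Dnajc4, Dnajc11, Dnajc28 and Dnajc30, had log2 fold changes of -0.01, 0.07, 0.03, -0.05 and 0.02.

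Of the 7 small heat shock proteins 5 fold changes were above 0 and 1 passed, and with the length trend removed 3 were above 0 and 0 passed. Hspb2 (NM_024441, mm10 chr9:50751072-50752354), a muscle protein, had 856, 754, 865, 923 and 844 normalized counts in control and 1001, 1035, 961, 948 and 977 in iSOD2 mice. The groups did not overlap, and control 2 was lowest. The log2 fold change was 0.21 (SE 0.062, adjusted p 0.0172 by DESeq2), and 0.08 with the length trend removed (adjusted p 0.639). The Hspb2 gene overlaps that of Cryab, another small heat shock protein, on the opposite strand. Of the 773 exon bases of Hspb2, 252 (32.6%) overlap the counted Cryab transcript. Cryab had 20634 raw counts per library on average against 932 for Hspb2, and counting without a stated strand option leaves the source of reads in the overlap uncertain. Cryab itself had a log2 fold change of 0.10 (adjusted p 0.240), and of -0.01 with the length trend removed. Hspb8 had 7004 to 7574 normalized counts in control and 7377 to 8845 in iSOD2 mice, with 4 of 5 iSOD2 mice above all controls, and missed the threshold (log2 fold change 0.14, adjusted p 0.0912). Hspb1, Hspb3, Hspb6, Hspb7 and Hspb9 ranged from -0.04 to 0.07 on the log2 scale.

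**Figure D3:**
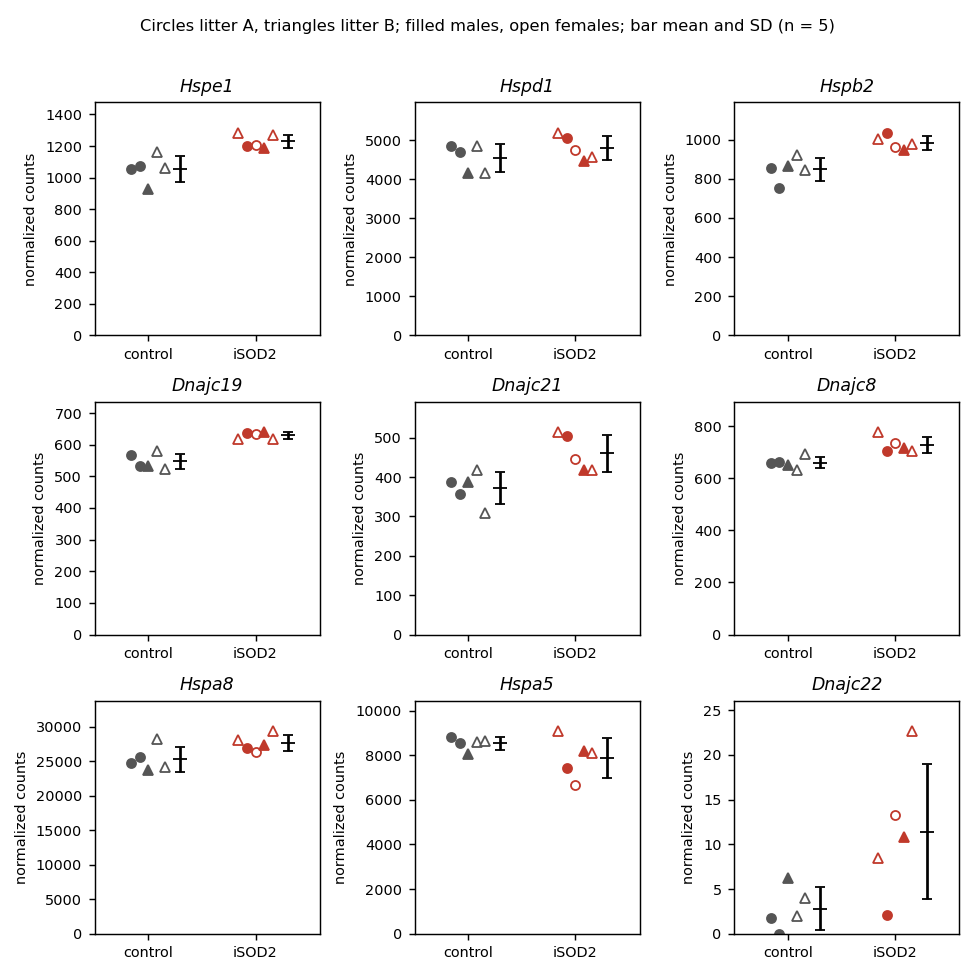
Normalized counts (linear axes from 0) of 9 members in each mouse, 5 control (grey) and 5 iSOD2 (red), with the mean and SD beside them; circles are litter A, triangles litter B, filled symbols males and open symbols females. Hspe1, Hspb2, Dnajc19 and Dnajc8 do not overlap between genotypes, and the 2 lowest Hspa5 values are the litter A iSOD2 mice.

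Among the J-domain proteins of the nucleus and of RNA, 5 of 5 fold changes were above 0 and 1 passed, and with the length trend removed 4 were above 0 and 0 passed. Dnajc21 (NM_030046, mm10 chr15:10446763-10470516) acts in the maturation of the large ribosomal subunit. It had 387, 358, 389, 419 and 309 normalized counts in control and 514, 505, 446, 419 and 418 in iSOD2 mice. The groups overlapped, since control 4 was level with iSOD2 9 and 10. The log2 fold change was 0.31 (SE 0.099), an increase of 23.6%, with an adjusted p of 0.0372 by DESeq2. Dnajc2, which works at the ribosome, had 262 to 331 in control and 326 to 383 in iSOD2 mice (log2 fold change 0.23, adjusted p 0.0928). Dnajc8, a partner of the splicing machinery, had 658, 661, 652, 632 and 694 in control and 777, 702, 736, 714 and 705 in iSOD2 mice. Its groups did not overlap, but the adjusted p was 0.129 at a log2 fold change of 0.14. Dnajc9, a histone chaperone, and Dnajc17 had log2 fold changes of 0.14 and 0.02.

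The cytosolic HSP70 system did not pass. Hspa8 had 24711, 25665, 23653, 28175 and 24182 normalized counts in control and 28096, 26846, 26302, 27367 and 29322 in iSOD2 mice. All but control 4 of the controls were below all iSOD2 mice, and the log2 fold change was 0.13 (SE 0.055, adjusted p 0.160 by DESeq2). The 3 HSP110 genes, whose proteins exchange the nucleotide of HSP70, were all below 0, and 0 passed by either tool (2 by DESeq2 and 1 by edgeR at an unadjusted p under 0.05). Hspa4l was at -0.13, Hspa4 at -0.10 and Hsph1 at -0.07 on the log2 scale, with adjusted p of 0.201, 0.205 and 0.790. With the length trend removed, all 3 HSP110 genes stayed below 0 and their median went from -0.10 to -0.05. By DESeq2, 0 of them then had an unadjusted p under 0.05. Hspa1a had a log2 fold change of 0.31 and Hspa1b of 0.26, at means of 42.8 to 97.5 normalized counts, and the low counts left both without an adjusted p. Of the 11 HSP70 genes, 6 fold changes were above 0 and 5 below. Their cytosolic J-domain partners Dnaja1, Dnajb1 and Dnajb4 had log2 fold changes of 0.16, 0.13 and 0.04 and overlapping groups.

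The 12 heat-inducible members, among them Hspa1a, Hspa1b, Hsph1, Hspb1, Dnajb1 and the chaperonin pair, had 9 fold changes above 0 and 3 below, and 1 (Hspe1) passed. Their median log2 fold change was 0.10, and 0.07 with 8 above 0 and 0 passing once the length trend was removed. The 10 members of the endoplasmic reticulum had 4 above 0 and 6 below, with a median of -0.02 and 0 past the adjusted threshold by DESeq2 or edgeR, and 0 at an unadjusted p under 0.05 by either tool. With the length trend removed 4 were above 0 and 0 passed, with a median of -0.02. Of the 10, 1 then had an unadjusted p under 0.05 by DESeq2. Hspa5 had 8807, 8552, 8062, 8607 and 8621 normalized counts in control and 9069.9, 7423, 6674, 8192 and 8099 in iSOD2 mice. The iSOD2 mice spread more widely (SD 898 against 278), and the log2 fold change was -0.11 (SE 0.073, adjusted p 0.405). Dnajc3, an inhibitor of the eIF2alpha kinase PERK whose promoter holds the same stress element, was at -0.00. Dnajb9, another target of the unfolded protein response, was at 0.10. Of the 5 members that act in vesicle and membrane traffic, 4 were below 0, and by either tool 0 passed and 0 had an unadjusted p under 0.05. With the length trend removed 1 of these 5 was above 0, and their median went from -0.08 to -0.02.

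The remaining 31 members included the 3 that did not pass the count filter. The other 28 had log2 fold changes from -0.24 (Dnajb13) to 0.24 (Dnajb7), both genes with few counts, 15 above 0 and 13 below. Their lowest adjusted p was 0.268, and 10 of the 28 had none. Dnajc22 was the member with the largest fold change, at low counts. Its normalized counts were 1.81, 0, 6.27, 1.98 and 4.05 in control and 8.44, 2.07, 13.2, 10.8 and 22.6 in iSOD2 mice, a log2 fold change of 2.04 (SE 0.69) with an unadjusted p of 0.00316 by DESeq2 and no adjusted p. The hepatocyte marker sums of the same mice, in the same order, were 1200.1, 5626, 16734, 9464 and 8998, then 16751, 8798, 20383, 17368 and 30537. The mouse with the highest Dnajc22 count, iSOD2 10, also had the highest sum. With the hepatocyte marker level as a covariate, an alternative added after seeing the data, the log2 fold change of Dnajc22 was 1.12 (SE 0.76), still without an adjusted p.

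The fold changes varied with the length of the counted transcript. Over the 60 members with a mean of at least 50, the log2 fold change and exon length had a Spearman correlation of -0.48 across genes, and over 12151 genes at that level it was -0.47. Genes share libraries and are not independent replicates. Of the 13 members of up to 1500 bp, 11 were above 0 with a median log2 fold change of 0.06, against 0.11 for all genes of that length. Of the 20 members over 3000 bp, 6 were above 0 with a median of -0.04, against -0.05 for all genes. Hspe1 and Hspb2 have counted transcripts of 762 and 836 bp, and Dnajc19 and Dnajc21 of 1863 and 2039 bp.

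After the length trend of each library was removed, 0 members passed the adjusted threshold of DESeq2, and 5 had an unadjusted p under 0.05 against 8.88% of all genes. The log2 fold changes of Hspe1 and Hspb2 both became 0.08. Dnajc19 went to 0.15 (adjusted p 0.191) and Dnajc21 to 0.27 (0.128), and neither passed. Over the 68 members, 34 were then above 0, with a median of -0.00, and the correlation with length over the 60 was 0.13. The Hspa8 value became 0.09 (adjusted p 0.485). The source of the length trend was not tested.

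**Figure D4:**
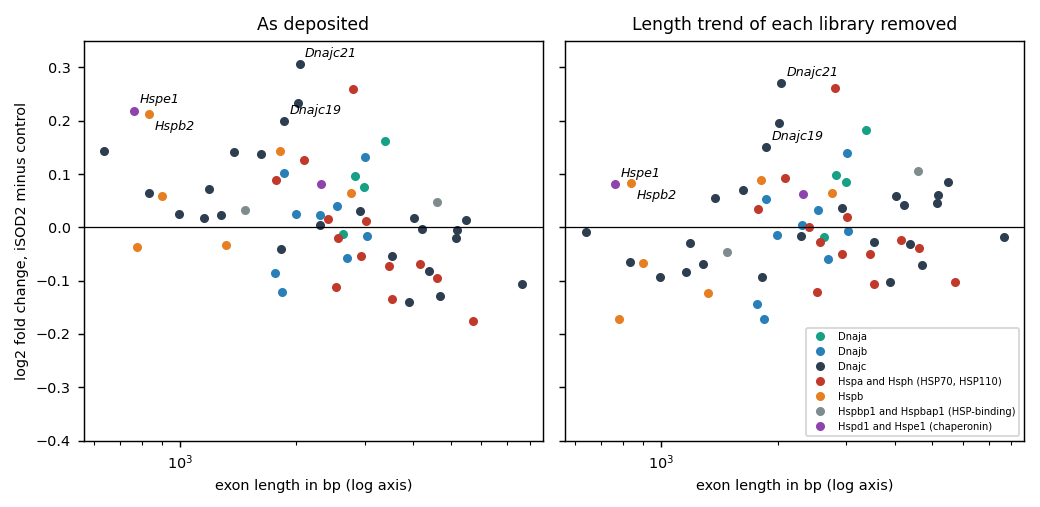
Log2 fold change of iSOD2 against control against the exon length of the counted transcript (log axis, bp) for 60 members, as deposited (left) and after the length trend of each library was removed (right). On the left short genes lie mostly above 0 and long genes below (Spearman -0.48), and on the right Hspe1 and Hspb2 fall to 0.08 while Dnajc21 is at 0.27.

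Litter and sex were compared because both varied within each genotype. Litter A held controls 1 and 2 and iSOD2 7, all male, and the female iSOD2 8. Litter and sex were therefore partly mixed, and each model held genotype but not the other factor. Between the litters, with genotype in the model, 0 members were called by DESeq2, while 3.5% of all genes were. At an unadjusted p under 0.05 there were 7 members by DESeq2 and 6 by edgeR. Over all genes, 13% reached it by DESeq2 and 2852 of 17728 by edgeR. Dnajc3 had the lowest p. It had 1210.1 and 1361 normalized counts in the litter A controls and 1442 and 1249 in the litter A iSOD2 mice, and 1419.5 to 1561 in litter B, so that 1442 alone lay inside the range of the other litter. Litter B was higher by a log2 difference of 0.17 (adjusted p 0.105 by DESeq2). Hspa1l, a testis-enriched HSP70 next to Hspa1a, was lower in litter B by a log2 difference of -0.45 (adjusted p 0.113), and 71.9% of its exon bases overlap GENCODE transcripts of the predicted gene Gm10501 on the other strand, none of them a counted transcript.

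Between the sexes 0 members were called by DESeq2, against 0.483% of all genes. There were 3 at an unadjusted p under 0.05 by DESeq2 and 3 by edgeR, where 6.6% of all genes were by DESeq2 and 1503 of 17728 by edgeR. Hspa12a, a distant HSP70 relative, had the lowest p and was lower in females by a log2 difference of -0.21 (adjusted p 0.361). The difference between the sexes in the genotype effect passed for 0 members and for 0 of all genes by either tool. At an unadjusted p under 0.05 there were 0 members by DESeq2 and 2 by edgeR. Over all genes, 1.18% reached that by DESeq2 and 487 of 17728 by edgeR. The difference between the litters passed for 0 members as well, and for 1 of all genes by either tool. Unadjusted, it gave 1 member by DESeq2 and 3 by edgeR, against 1.79% of all genes by DESeq2 and 676 of 17728 by edgeR. The 1 member was Hspa5. Its log2 fold change was -0.30 within litter A (2 mice a genotype, adjusted p 0.0220 by DESeq2) and 0.00 within litter B. In litter A controls 1 and 2 and iSOD2 7 were male and iSOD2 8 was female, so the genotypes also differed in sex. The DESeq2 test of the difference between the litters gave an unadjusted p of 0.00631 and did not pass after adjustment.

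Variation of the members between mice is given beside that of all genes past the same minimum mean, without matching for level. The coefficient of variation over all 10 mice had a median of 7.59% for the 60 members with a mean of at least 50, from 3.12% to 24.2%, and of 9.19% for all genes at that level. Dnajc14, Dnajc10 and Dnajc11 were the steadiest, at 3.12%, 3.86% and 3.91%. Hspa1l, Dnajb5 and Dnajb1 varied most, at 24.2%, 21.0% and 17.4%. Dnajb1, the classical cytosolic J-domain partner of HSP70, ran from 313 in iSOD2 8 to 579 in iSOD2 9, both of 1 genotype. Dnajb5 ran from 804 in control 6 to 1607 in control 2.

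The heat-inducible members were compared from mouse to mouse through 1 of them. Each of the other 11 was correlated with Hsph1, a heat-inducible gene without a near-identical copy, over the 10 mice on log2(normalized count + 1). After Benjamini-Hochberg adjustment over the 11 pairs, 0 passed. Hspb1 came closest, with Pearson's r of 0.73 (permutation p 0.0366, adjusted 0.403) and Spearman's rho of 0.48 (permutation p 0.167, adjusted 0.598). Without control 3 and iSOD2 7, the 2 mice farthest from the median of Hsph1, r was 0.29. Within litter B, with 6 mice, r was 0.91 (exact permutation p 0.0444, adjusted 0.489), and litter A had too few mice for a value. For the chaperonin genes Hspd1 and Hspe1, r was 0.29 and 0.32.

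**Figure D5:**
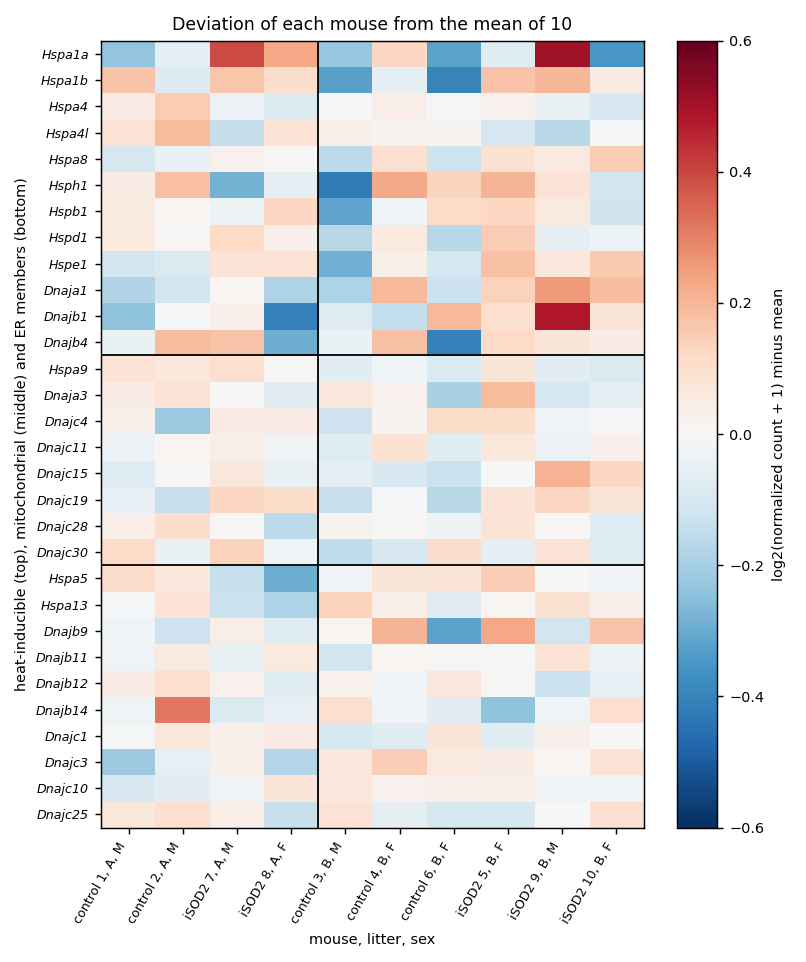
Deviation of each mouse from the mean of 10 in log2(normalized count + 1), colour from -0.6 (blue) to 0.6 (red), for the heat-inducible (top), mitochondrial (middle) and endoplasmic reticulum members (bottom); columns are mice ordered by litter and genotype. No mouse is raised or lowered across a whole block, and Dnajb1 is highest in iSOD2 9 and lowest in iSOD2 8.

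Further chaperone genes that the symbol rule does not match were read out beside the members, as 70 genes in 8 lists. Of these, 69 passed the count filter, 50 with fold changes above 0 and 19 below. By DESeq2, 0 were called, against 281 of the 9479 genes of the whole table with an adjusted p. Without the fold threshold 3 passed as higher and 1 as lower, where 3.04% of all genes passed as higher and 3.05% as lower. At an unadjusted p under 0.05 there were 14 by DESeq2 and 12 by edgeR. Over all genes, DESeq2 gave 7.29% as higher and 5.93% as lower at that p, and edgeR gave 15.3%. After adjustment edgeR passed 0 of the listed genes and 0 of all 17728 genes. The cytosolic HSP90 genes Hsp90aa1 and Hsp90ab1, the reticulum form Hsp90b1 and the mitochondrial Trap1 had log2 fold changes of 0.05, 0.02, -0.05 and 0.05. Hsf1 was at -0.07, Hsf2 at -0.06 and the third factor, Hsf4, at 0.08, without an adjusted p, and none passed. The 4 that passed were Bag1, an exchange factor of HSP70, at 0.14 (adjusted p 0.0141), the prefoldin subunits Pfdn1 at 0.23 (0.00748) and Vbp1 at 0.25 (0.0275), and the reticulum disulfide isomerase Pdia3 at -0.21 (0.00171). They were chosen for naming after their values were seen. All 14 genes of the cytosolic chaperonin and prefoldin had fold changes above 0 with a median of 0.07, and with the length trend removed 10 of 14 did. Pdia3 alone passed after that removal, at -0.22 (adjusted p 0.00218 by DESeq2).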

How the data were processed

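Hearts of 10 mice were sequenced as total RNA depleted of ribosomal RNA. Per the study's methods and the labels, the authors aligned reads to mm10 with STAR and summed them over exons with HOMER. The authors deposited each gene's estimated counts, in multiples of 0.5 and not normalized, with another deposited unit, the exon length in bp of the transcript kept for each gene. The command gives no strand option. Counts were rounded, and genes under 10 counts in total were dropped. Groups came from the labels. The genotype comparison used DESeq2 1.42.0 (R 4.3.3; Wald test, unshrunken), as in the study's methods, fitted on the whole table with Benjamini-Hochberg adjustment over all genes tested. Independent filtering leaves low genes without an adjusted p. Litter and sex were tested with genotype as covariate, and interactions in models with the product term. edgeR 4.0.16 (quasi-likelihood) was the alternative tool. The length trend of each library was a lowess fit (span 0.3) of its log2 ratio to the mean library, on genes with a mean of at least 50. Correlations used 100000 resamples (scipy 1.17.1). The models were checked on simulated counts. No libraries were copies (lowest chi-square per degree of freedom of 45 pairs 5.45).

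The genes named are the members called, those whose genotypes did not overlap, the 10 lowest p, the 10 highest levels, and the heat-inducible, mitochondrial, reticulum and small heat shock lists, with HSP90, HSF and Cryab genes of the other lists. Others named (among them Hspa1l, Hspa12a, Dnajb5, Dnajb7, Dnajb13, Dnajc14 and the nuclear list) were chosen after their values were seen. The symbol rule used no measured value to pick members. The rule, lists and tests were nevertheless chosen with earlier results of these data known, so counts over the lists are not independent support.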

Additional observations from a re-analysis of the deposited data

Results flagged for a closer look

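Within each genotype, 40 members were searched for a single mouse far from the other 4 (Dixon's ratio above its 95% critical value for 5 mice). In 80 such groups 2 were found, where chance gives about 1 in 20 groups, or 4.0. Dnaja1, a cytosolic J-domain partner of HSP70, had 1043 normalized counts in control 4 and 801 to 845 in the other controls. Dnaja3, its mitochondrial relative, had 2095 in control 6 and 2439.6 to 2545 in the other controls.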

How the results depend on the processing

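Dnajc21 was the 1 member called between genotypes. The count was 0 with edgeR, by which 0 of all 17728 genes passed. It was also 0 with sex, sex and litter, or the hepatocyte marker level (chosen after seeing the data) as covariates. The same held with the length trend removed, in litter B, in males and in females, and the count was 4 with no fold threshold. It was 1 with TMM scaling, other count filters and litter as a covariate, and 1 in litter A, where the gene was Hspa5. Leaving out each mouse gave 0 to 2. It was 2 (Dnajc21 and Hspe1) without control 4, 1 without iSOD2 9 or 10 and 0 without any of the other 7. Leave-one-out adjusted p reached 0.0848 for Hspe1, 0.0714 for Hspb2, 0.117 for Dnajc19 and 0.123 for Dnajc21. Over 23 alternatives Hspe1 passed the adjusted threshold in 12, Hspb2 in 10, Dnajc19 in 8 and Dnajc21 in 7, always above 0. The other chaperone genes called went from 0 to 4 with no fold threshold and to 0 to 2 over left-out mice. Members called between litters were 0, 1 with sex as a further covariate (Dnajb1), and 0 to 1 over left-out mice (Hspa1l without iSOD2 5). Between sexes 0 were called in every setting run. Over 48 genes and 1096 alternative values, 51 lost and 3 gained the adjusted threshold (Hspa5 in litter A, Hspa8 without control 4, Hspb8 without iSOD2 7), 0 reversed past it, and 76 below it changed sign. A further 4 values without an adjusted p were left out. The cause of these changes was not tested. The litter, sex and left-out fits also held fewer mice. Depth limits genes of few counts, such as Hspa1a and Dnajc22. No paired analysis was run, because the genotypes are different mice and the labels name no pairs. Litter, which both genotypes share, was fitted as a covariate.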
